A study of Drosophila melanogaster with 4 samples.

Results

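The genes described here encode the basement membrane of the Drosophila melanogaster embryo and receptors that hold cells to it. They were the 3 laminin chain genes LanA, LanB1 and LanB2, the 2 collagen IV genes Col4a1 (formerly Cg25C) and vkg, the matrix genes SPARC and trol, the integrin ligand gene Tig, and the integrin subunit genes mys and if. They were chosen by symbol, current or older, and by having a value on at least 1 array of each biological replicate. All 10 met that rule, among 5752 genes that did. Of the 12 spots named for them 11 carried values, and 1 of the 3 trol spots was empty on every array.

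Whole embryos aged 0 to 24 h, from flies kept at 25 °C, were compared. The mutant embryos carried dsap18 117, a null allele made by mobilising the P element of EP(3)3462, over the deficiency Df(3R)sbd45, which removes dsap18, in a w1118 background. The control embryos had the same w1118, dsap18 117 and Df(3R)sbd45 genotype and in addition a dsap18-HA transgene, so that, by the labels, neither group has a working endogenous copy. The labels of 3 arrays place that transgene on X and the label of the fourth, in replicate 1, on chromosome 2; the promoter that drives it is not given in the sources used here. dSAP18 is the fly form of SAP18, a small protein of the Sin3 histone deacetylase and splicing-associated complexes. Mutant and control RNA were hybridised together on 4 two-colour arrays, 2 for each of 2 biological replicates, with the dyes swapped within a replicate. The swapped arrays held the same amplified RNA, so n is 2.

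Every value below is the authors' deposited log ratio of the channels, taken as log2. The sources used here do not state its direction. Mutant over control is likely, because the design text names the mutant RNA as sample beside a reference, and a negative ratio then means a lower level in mutant embryos. Were it the reverse, each sign would turn. All 4 arrays correlated positively across genes (Pearson r between 0.68 and 0.92), also those of opposite dyes, so the ratios were taken as already turned one way. The SD of the ratios over genes was 0.28 in replicate 1 and 0.48 in replicate 2. The arrays had values for 6537 to 7976 of 16416 spots, and spot intensities were not used here, so levels of different genes cannot be compared, and precision is limited by how few arrays there are.

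A basement membrane is a thin sheet of extracellular matrix under epithelia and around muscles, nerves and the gut. Laminin, a trimer of an alpha, a beta and a gamma chain, assembles first on the cell surface, and a network of collagen IV, linked by perlecan and nidogen, strengthens it. In the fly embryo migrating hemocytes make much of the collagen IV and laminin, and the fat body adds to it later. Integrins, pairs of an alpha and a beta subunit, bind this matrix and connect it through talin to the actin cytoskeleton, above all where muscles attach to tendon cells.

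Of these 10 genes 9 had a negative ratio that passed the test and none passed with a positive one, nor did any have a positive ratio at an unadjusted limma p under 0.05. Among all genes 11.6% passed with a negative ratio and 11.2% with a positive one (limma against 0, Benjamini-Hochberg adjusted p under 0.05 over 5752 genes). The 10 genes were chosen with earlier results of these data known, so these shares are given as a description only. The median log2 ratio was -0.69 over the 10 genes and 0.02 over all genes tested. The gene that did not pass was mys. On every array with a value 9 of the 10 genes were negative, mys again being the exception, while 30.5% of all genes were. These counts use a variance that limma shares between genes. With each gene's own variance alone, none of the 10 genes passed or had an unadjusted p under 0.05, and none of the 5752 passed, while 461 of all genes had an unadjusted p under 0.05.

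**Figure D1:**
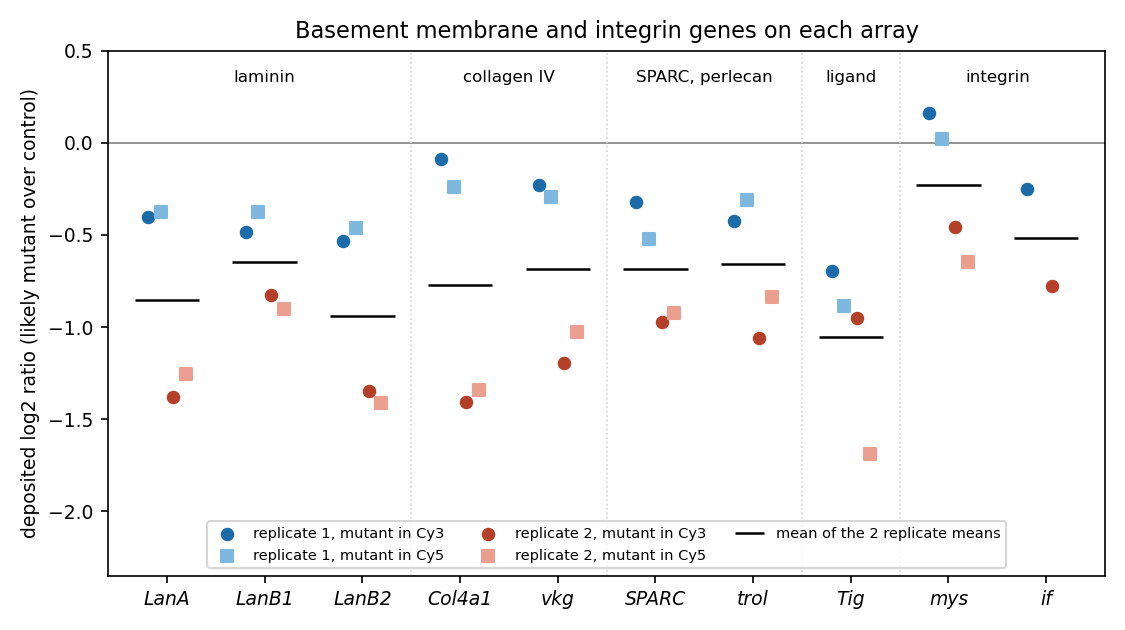
Each point is the deposited log2 ratio of a gene on 1 array (vertical axis, likely mutant over control), with genes grouped by role on the horizontal axis, colours for the 2 biological replicates, circles and squares for the dye of the mutant RNA, and a bar for the mean of the replicate means. In all 10 genes the points of replicate 2 lie below those of replicate 1, and mys alone has points above 0.

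All 3 laminin genes passed with a negative ratio. LanB2 (NCBI gene 39118), the gamma chain gene, had log2 ratios of -0.53 (mutant in Cy3) and -0.46 (mutant in Cy5) in replicate 1, and in replicate 2, in the same order of dyes as for every gene below, -1.35 and -1.41. Its mean was -0.94 ± 0.62 (SD, n = 2), a 1.92-fold difference (limma adjusted p = 3.59e-05). The swapped arrays lay closer together than the replicates, and that held for the other laminin chains too. LanA (NCBI gene 38723), which encodes an alpha chain, had -0.40 and -0.38 in replicate 1 and -1.38 and -1.26 in replicate 2, with a mean of -0.85 ± 0.66 (limma adjusted p = 1.60e-04). LanB1 (NCBI gene 34068), the beta chain gene, had -0.48 and -0.38 in replicate 1 and -0.83 and -0.90 in replicate 2, with a mean of -0.65 ± 0.31 (limma adjusted p = 0.00222). The chains were nearly equal in replicate 1, where the replicate means were -0.39 for LanA, -0.43 for LanB1 and -0.50 for LanB2. In replicate 2 LanA (-1.32) and LanB2 (-1.38) lay below LanB1 (-0.87), by 0.45 and 0.51. These differences between chains were not tested. A fit of the 4 arrays with a dye term took the swapped arrays as independent, although n is 2. In that fit the limma adjusted p was 0.0164 for LanB2, 0.021 for LanA and 0.0147 for LanB1. For each chain that was the highest of the moderated alternatives.

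Both collagen IV genes passed with a negative ratio, and Col4a1 differed most between the replicates among the 10 genes. Col4a1 (NCBI gene 33727) encodes the alpha1 chain and vkg (NCBI gene 33726) the alpha2 chain of collagen IV. They are neighbours on chromosome arm 2L, with no gene starting between them in the RefSeq gene table, and are known to be transcribed away from each other. Col4a1 had log2 ratios of -0.09 and -0.24 in replicate 1 and -1.41 and -1.34 in replicate 2. Its mean was -0.77 ± 0.86 (SD, n = 2), a 1.7-fold difference (limma adjusted p = 9.41e-04), and with robust moderation it no longer passed (limma adjusted p = 0.0521, the highest of its moderated alternatives, of which the lowest was 1.57e-05). In replicate 1, 27.1% of all genes had a lower ratio than Col4a1, and in replicate 2, 0.73% had. vkg had -0.23 and -0.29 in replicate 1 and -1.19 and -1.03 in replicate 2, with a mean of -0.69 ± 0.60 (limma adjusted p = 0.00182). The order of the neighbours turned between replicates: Col4a1 was 0.10 above vkg in replicate 1 and 0.26 below it in replicate 2.

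SPARC and trol encode proteins of the assembled sheet. SPARC (NCBI gene 43230), a collagen-binding glycoprotein gene, had log2 ratios of -0.32 and -0.52 in replicate 1 and -0.97 and -0.92 in replicate 2. Its mean was -0.68 ± 0.37 (SD, n = 2), a 1.61-fold difference (limma adjusted p = 0.00139). The gene trol (NCBI gene 45320), which encodes the heparan sulfate proteoglycan perlecan, was averaged over 2 spots and had -0.42 and -0.31 in replicate 1 and -1.06 and -0.84 in replicate 2. Its mean was -0.66 ± 0.41 (limma adjusted p = 0.00215). The trol spots ran together, with -0.44, -0.23, -1.18 and -0.94 at one and -0.41, -0.38, -0.94 and -0.74 at the other, in the order of the arrays used above.

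The ligand gene had the lowest mean of the 10 over both replicates. In replicate 2 alone LanB2 (-1.38) and Col4a1 (-1.37) were below it (-1.32), and with the mutant in Cy3 only LanB2 (-0.94) and LanA (-0.89) were (-0.82 for Tig). Tig (NCBI gene 33896) encodes Tiggrin, a matrix protein at muscle attachment sites that binds the integrin made of the if and mys products. Its log2 ratios were -0.70 and -0.89 in replicate 1 and -0.95 and -1.69 in replicate 2. The mean was -1.06 ± 0.37 (SD, n = 2), a 2.08-fold difference (limma adjusted p = 2.44e-06), and 21 of 5752 genes had a lower mean. With a dye term in the fit its limma adjusted p was 0.0117, the highest of its moderated alternatives. Of the 10 genes Tig alone had a mean beyond 2-fold, a size that 0.556% of all genes reached with a negative ratio. Tig was also low in both replicates against the other genes: 0.4% of genes were lower in replicate 1 and 0.904% in replicate 2. Its swapped arrays of replicate 2 differed by 0.74, against a median swap difference of 0.11 over all genes, and the ratio was larger in size with the mutant in Cy5 in both replicates.

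The integrin subunit genes had the smallest ratios of the 10 in the mean over both replicates. In replicate 1 alone the ratio of Col4a1 (-0.17) was smaller in size than that of if (-0.25). The gene mys (NCBI gene 44885), which encodes the beta subunit betaPS shared by several integrins, had 0.16 and 0.02 in replicate 1 and -0.45 and -0.65 in replicate 2. The replicates thus had opposite signs, as in 21.5% of all genes, and the mean of -0.23 ± 0.45 (SD, n = 2) did not pass (limma adjusted p = 0.32, 95% interval -0.55 to 0.10). The gene if (NCBI gene 32661), which encodes the alphaPS2 subunit, had values on 2 arrays only, -0.25 in replicate 1 and -0.78 in replicate 2. Both arrays had the mutant RNA in Cy3, so a dye effect would not cancel in its mean of -0.51 ± 0.37 (limma adjusted p = 0.0152). With a dye term in the fit, which could not be estimated for if and left its ratio as it was, it no longer passed (limma adjusted p = 0.0554, the highest of its moderated alternatives, of which the lowest was 0.00464).

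**Figure D2:**
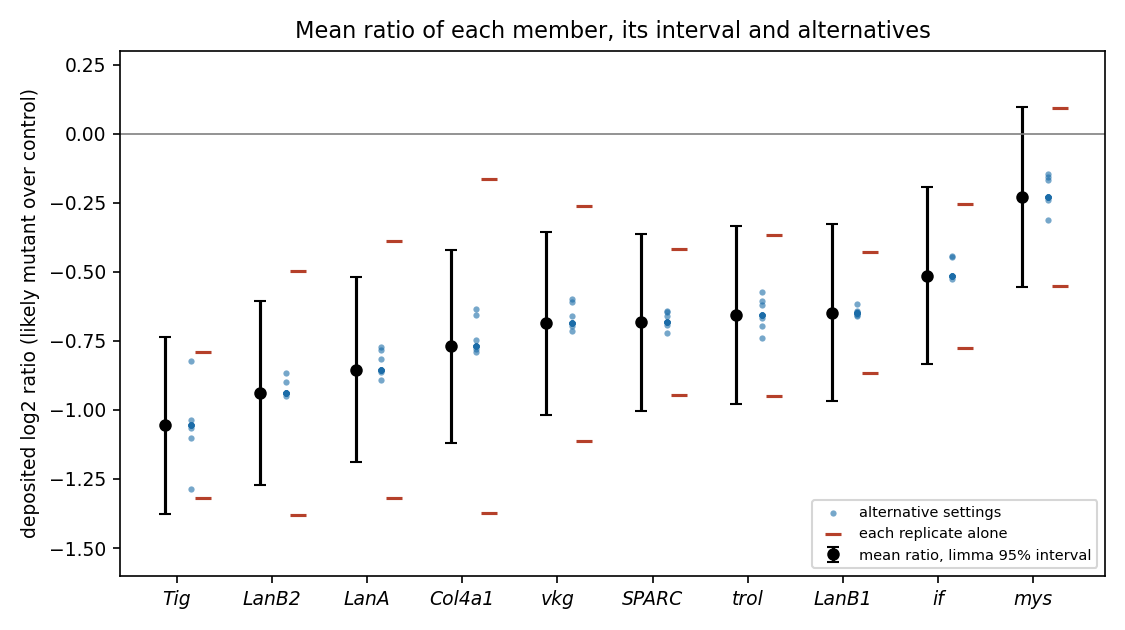
Black points are the mean log2 ratio of each gene (vertical axis, likely mutant over control) with limma's 95% interval, small blue points are the means under alternative settings, and red dashes are the means of replicate 1 (upper) and replicate 2 (lower) alone. The genes run from Tig at -1.06 to mys at -0.23, and the interval of mys is the one that spans 0.

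Matrix and ligand genes lay below mys on every array. Each of the 7 matrix genes and Tig had a lower ratio than mys on 4 of 4 arrays. The replicate differences from mys ran from -0.88 (Tig) to -0.26 (Col4a1) in replicate 1 and from -0.83 (LanB2) to -0.32 (LanB1) in replicate 2. Against if, 6 of the 8 were lower on both arrays that measured it, while Col4a1 and vkg were above it on the replicate 1 array and below it on the replicate 2 array. The median over the 7 matrix genes was -0.39 in replicate 1 and -1.11 in replicate 2. For the integrin genes the medians were -0.08 and -0.66. The 95% intervals of Tig (-1.38 to -0.73) and LanB2 (-1.27 to -0.61) did not overlap that of mys, and those of the other genes did. Neighbours in the order from Tig through LanB2, LanA, Col4a1, vkg, SPARC, trol, LanB1 and if to mys all had overlapping intervals, and differences between genes were not tested.

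All 10 genes had a lower ratio in replicate 2 than in replicate 1, which 48.6% of all genes, of either sign, had. Ratios spread wider in replicate 2, and 69.2% of all genes had the larger size there. The lower ratio in replicate 2 was not particular to the 10 genes. The further matrix, other receptor, fat body and glial lists below had it in 100% of genes. The share was 90% for adhesion and muscle, 81.8% for hemocytes, 50% for collagen processing and 22.2% for maternal transcripts. The replicate difference of the 10 genes had a median size of 0.61, against 0.22 over all genes. Divided by the SD over genes in each replicate, the laminin ratios were -1.41 (LanA), -1.56 (LanB1) and -1.80 (LanB2) in replicate 1 and -2.73, -1.79 and -2.85 in replicate 2. On that scale Tig was at -2.87 and -2.73, Col4a1 at -0.60 and -2.84, and mys at 0.33 and -1.14. LanB1 and Tig were thus nearly level between the replicates, while Col4a1, LanA and LanB2 were lower in replicate 2. For LanA, LanB2, Col4a1 and vkg both replicate means lay outside limma's 95% interval, as in 5.22% of all genes. In all 10 genes the SD between the replicate means, 0.31 or more, exceeded the prior SD of 0.22 that limma took from all genes.

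**Figure D3:**
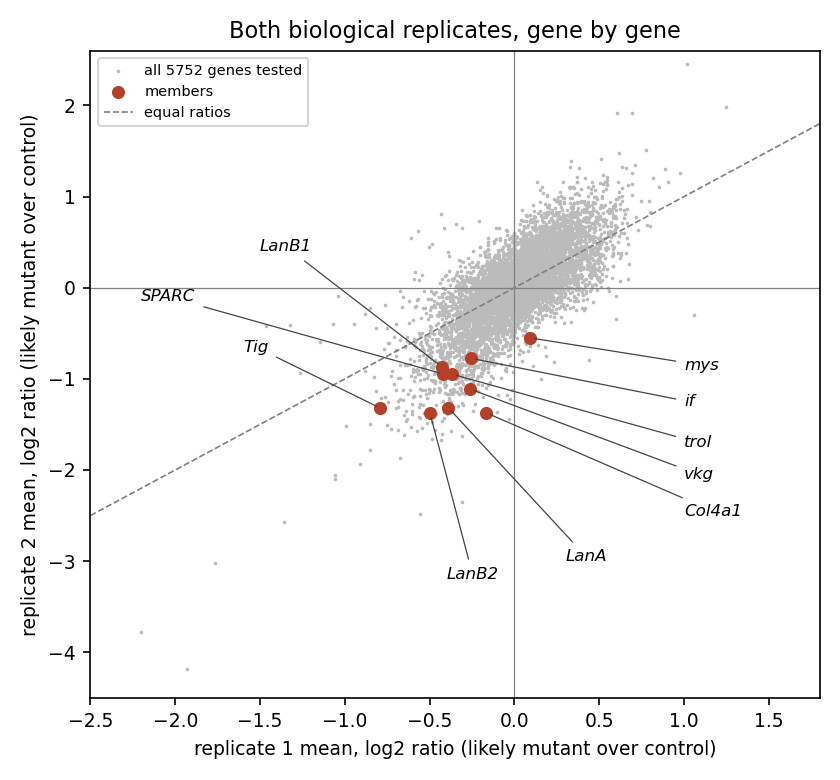
Each point is a gene, with its mean log2 ratio (likely mutant over control) in replicate 1 on the horizontal and in replicate 2 on the vertical axis, on axes of different scale; grey points are all 5752 genes, red points the 10 genes described, and the dashed line marks equal ratios. All 10 lie below the line, Col4a1 farthest from it among the 10, and mys lies to the right of 0.

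Most further matrix and proteoglycan genes that were measured did not pass. Of 5 measured genes in a list of further matrix proteins and proteoglycans, 1 passed with a negative ratio, beside 11.6% of all genes. None passed with a positive one, and the median was -0.30. The gene that passed was Ndg, which encodes nidogen, a linker of laminin and collagen IV. Ndg had -0.48 and -0.50 in replicate 1 and -1.43 and -1.25 in replicate 2, with a mean of -0.91 ± 0.60 (SD, n = 2; limma adjusted p = 4.74e-05). The 4 that did not pass were Mp, Pxn, dlp and Sdc, with means between -0.31 and -0.04. Pxn had values on 2 arrays only, both with the mutant in Cy3, and is also counted in the hemocyte list below. The second laminin alpha chain gene, wb, and the integrin subunit genes mew, scb, ItgaPS4, ItgaPS5 and Itgbn did not meet the rule on values and are not analysed here.

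Among genes that process or secrete collagen, 1 of 4 measured passed, with a negative ratio, beside 11.6% of all genes. The median of the 4 was 0.21. Plod, the lysyl hydroxylase gene of collagen modification, had -0.29 and -0.40 in replicate 1 and -1.0 and -0.71 in replicate 2, with a mean of -0.60 ± 0.36 (SD, n = 2; limma adjusted p = 0.00472). The 3 that did not pass, Rab10, Crag and strat, all had positive means of 0.13 to 0.39, and of these Crag had an unadjusted limma p under 0.05 (0.0154). They act in basal secretion of the matrix in the follicle epithelium. The metalloprotease inhibitor gene Timp, the sole measured gene of its list, had a mean of -0.49 ± 0.10 over 3 arrays (limma adjusted p = 0.0187).

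On the cytoplasmic side of integrin adhesion, 2 of 10 measured genes passed with negative ratios, beside 11.6% of all genes, and none with a positive one; the median was -0.15. They were Pax, the gene of the scaffold paxillin, and rhea, the talin gene. Pax had -0.01 and -0.34 in replicate 1 and -1.39 and -1.41 in replicate 2, with a mean of -0.79 ± 0.87 (SD, n = 2; limma adjusted p = 7.42e-04), so its replicates stood as far apart as those of Col4a1. rhea had a mean of -0.44 ± 0.26 over 2 spots (limma adjusted p = 0.0379). The 8 others, among them Ilk, parvin and stck of the complex around integrin-linked kinase, did not pass and lay between -0.34 and 0.10, and of these Fit2 (-0.34) alone had an unadjusted limma p under 0.05. None of 4 other matrix receptor genes (Dg, Ddr, dnt and Scgalpha) passed, with a median of -0.17, and 1 of them, the dystroglycan gene Dg, had an unadjusted limma p under 0.05 (0.0391). The muscle attachment gene kon, the sole measured gene of its list, had a mean of -0.34 ± 0.14 and did not pass (limma adjusted p = 0.115).

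**Figure D4:**
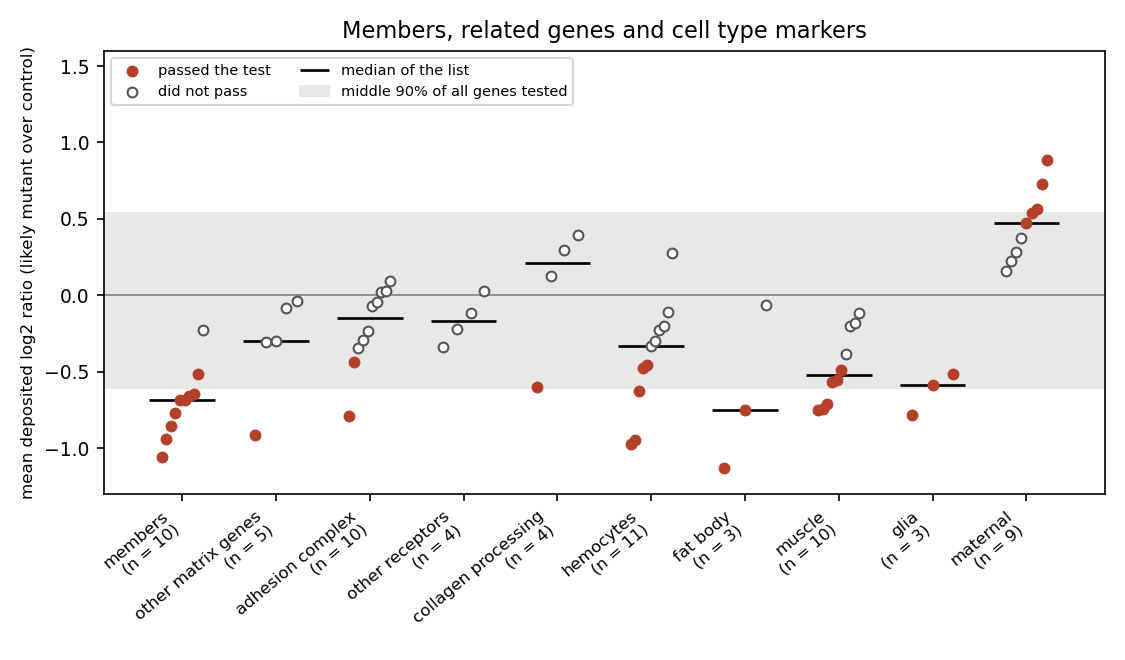
Points are the mean log2 ratio of each measured gene (vertical axis, likely mutant over control) in the 10 genes described and in lists of related genes and cell type markers (horizontal axis); filled points passed the limma test, bars are list medians and the grey band holds the middle 90% of all genes, from -0.61 to 0.54. The 10 genes have a median of -0.69, against -0.75 for fat body (n = 3), -0.58 for glia (n = 3), -0.52 for muscle and -0.33 for hemocytes. The maternal transcripts lie above 0.

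Some markers of hemocytes, fat body, muscle and glia passed as well, with negative ratios. Among all genes 11.6% passed with a negative ratio. Of 11 measured hemocyte markers 5 passed, all negative, with a median of -0.33. They included the prophenoloxidase genes PPO2 (-0.97 ± 0.53) and PPO1 (-0.95 ± 0.39) and srp (-0.62 ± 0.42), the GATA factor gene of hemocytes and fat body. The hemocyte markers that did not pass were NimC4 (-0.33), Pxn (-0.30), ush (-0.22), gcm (-0.20), crq (-0.11) and Fer1HCH (0.27). Hml and NimC1, among the defining markers, did not meet the rule on values. Of 3 fat body markers 2 passed, the lipoprotein genes apolpp (-1.13 ± 0.53) and Apoltp (-0.75 ± 0.38), and Lsp2 (-0.07) did not. The fat body median of -0.75 was below that of the 10 genes (-0.69). Of 10 muscle markers 6 passed, all negative, with a median of -0.52, led by Tm2 (-0.75 ± 0.28). All 3 measured glial markers passed with negative ratios (median -0.58).

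Markers of the youngest embryos ran the other way. Maternal transcripts had a median of 0.47 over 9 measured genes. Of these 5 passed, each with a positive ratio, led by plu (0.89 ± 0.39) and swa (0.73 ± 0.11). The 4 that did not pass were gnu (0.37), png (0.29, on 2 arrays), nanos (0.22) and osk (0.16). Among all genes 11.2% passed with a positive ratio. The collection spans 0 to 24 h. Strong expression of the collagen IV and laminin genes is known from the later part of that span, and mys is known to be supplied by the mother as well. Neither embryo age nor maternal supply was tested here. In whole embryos, fewer cells of a type, a different mix of ages and less RNA per cell cannot be told apart. The part of these markers in the ratios of the basement membrane and integrin genes was not tested. In the table of ratios no summed level of a marker list in mutant or control embryos can be given.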

How the data were processed

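RNA of whole mutant and rescued control embryos was measured on 4 two-colour arrays in 2 biological replicates. The deposited values are the authors' log ratios, made with limma per the submitters' processing notes and taken here as log2, the base limma uses. Their base as deposited, direction, background correction and normalization, and why spots were left empty, are not given in these sources. Array medians over tested genes lay between 0.00 and 0.02.

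The platform annotation gave 13163 of 16416 spots 1 gene symbol, 101 several and 3152 none. The Release 6 RefSeq gene table supplied current symbols for 12532 spots by gene ID and 120 by accession, and 511 stayed as annotated. Spots with a value in each replicate were averaged per gene (171 genes had several), giving 5752 genes. Swapped arrays were averaged with no sign turned. The replicate means were set against 0 in a two-sided test (lmFit and eBayes of limma 3.58.1, R 4.3.3), with 1 residual degree of freedom per gene, 62.9 prior degrees of freedom and a prior SD of 0.22. The threshold was a Benjamini-Hochberg adjusted p under 0.05, which the smallest passing ratio met at 0.41. The procedure was tested on simulated ratios with the same spread in both replicates. These did not have the wider spread of replicate 2.

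The members and lists were chosen with earlier results of these data known. From the other lists, genes that passed are named, at most the 4 with the largest ratios, and any others were chosen after seeing their values. The gene table did not match 4 listed symbols (Fbln1, loxl-1, Slrp and DesatI). Alternatives changed the gene set, replicate handling, dye, spots, scaling, filter and moderation. No promoter or protein sequence was used here.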

Additional observations from a re-analysis of the deposited data

How the results depend on the processing

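The count of the 10 genes passing with a negative ratio was 8 or 9 in 12 of 13 alternatives, and it was 0 when each gene was tested by itself without moderation, an alternative chosen after seeing the data, in which 0 of all genes passed on the negative side and 0 on the positive side. With 1 residual degree of freedom that test has little room to call any gene. Over all genes the counts were 1186 negative and 1274 positive with the 4 arrays taken as independent. The fit with a dye term also took the swapped arrays as independent. The positive count was 996 with a dye term, 1012 with arrays scaled to one spread and 1025 with quantile normalization, against 643. In the same settings the negative count was 930, 934 and 970, against 670. With the replicate block (a random block over 4 arrays) 672 genes were negative and 679 positive, and 9 of the 10 genes passed. With a dye term the limma adjusted p was 0.0298 for vkg, 0.0161 for SPARC and 0.0181 for trol, the highest of the moderated alternatives for each. The median over the 10 genes ran from -0.73 to -0.63. Leaving out 1 replicate gave values with no test: the median was -1.03 without replicate 1 and -0.38 without replicate 2. mys changed sign without replicate 2 (0.0919, against -0.55 without replicate 1). Tig is not among the genes left without those noisiest between swaps, and if has no value with the mutant in Cy5 only or on all 4 arrays. The cause of the other changes was not tested. No intensity was used, so signal over background sets an unknown limit.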
